A study of Drosophila melanogaster with 2 samples.

Results

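The strongest CG3847-eGFP peaks in Drosophila melanogaster embryos were the optimal peaks on the major chromosomes with a deposited signal of 500 or more. They numbered 345 of 6148, and the 5803 others are called the remaining peaks. The optimal set is the authors' list of peaks past the irreproducible discovery rate (IDR), a measure of how well a peak's rank repeats between libraries. Chromatin immunoprecipitation with sequencing was done on whole embryos aged 0 to 24 h from transgenic flies of the strain CG3847-GFP, which carry an insertion targeting CG3847. The fusion protein was precipitated with an antibody against GFP, and the antibody field of the labels names CG3847. There was 1 group with 2 biological replicates and no second condition, and a control experiment was not used here. The chromatin came from all cell types and ages of the collection together, so binding by 1 tissue or stage cannot be told apart from binding by others. Members were selected on the pooled signal of both replicates, so signal itself is described without a test. Shares are given with exact 95% intervals that cover the counting of peaks only, since peaks of the same libraries are not replicates.

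Zinc finger proteins of the C2H2 type bind DNA with small domains that each hold a zinc ion between paired cysteines and histidines, and several fingers in a row read a DNA sequence. Fly promoters fall into classes with known sequence elements. Housekeeping promoters often carry the DNA replication-related element (DRE) or the element called Motif 1, while many regulated promoters carry a TATA box. A stretch rich in A and T disfavours the wrapping of DNA into nucleosomes. The coding sequence of CG3847 (FBgn0029867) had 380 codons, stop included, and a search of its translation found the C2H2 spacing pattern 2 times.

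A pair of short words stood at a set place beside many of these peaks and pointed to the summit, the base of highest signal. They were GGCGTA and ACAGTGG. A word was counted as facing when the summit lay 3′ of it, on the strand that reads as written, with 50 to 125 bp from the word's centre to the summit. Both strands were searched. GGCGTA faced the summit of 32 strongest peaks (9.28%, interval 6.43 to 12.8) and of 1.86% of remaining peaks (1.53 to 2.24), beside 2.28% of all optimal peaks. ACAGTGG faced 48 strongest peaks (13.9%, 10.4 to 18.02) and 4.76% of remaining peaks (4.22 to 5.34), beside 5.27% of all optimal peaks. In a wider zone of 25 to 150 bp GGCGTA faced 10.1% of strongest and 3.1% of remaining peaks, and ACAGTGG 15.9% and 6.91%. The words and the zone were picked after several word rankings over peaks of all chromosome arms, so no arm was held out for them and the counts are a description.

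The 8 strongest members with a facing GGCGTA are shown so that the word and its flanks can be compared, leaving out 1 chromosome arm. Each line gives 30 bases of the RefSeq Release 6 genome (dm6), 5′ to 3′ toward the summit, with the word in capitals. CG14100 is at chr3L:19590663-19590692 on the minus strand, Ugalt at chrX:2703946-2703975 on the minus strand and CG5611 at chr3R:27636074-27636103 on the plus strand. Tcs5 is at chr3L:5139550-5139579 on the minus strand, mRpL23 at chr3L:2373523-2373552 on the plus strand and Tlk at chrX:3742115-3742144 on the plus strand. CG9663 is at chr2L:3302215-3302244 on the minus strand and CG31145 at chr3R:23669781-23669810 on the plus strand.
CG14100: tgcatgGGCGTAgtgaagtttctgattcgg
Ugalt: gccatgGGCGTAgcttgctttaaaatgggg
CG5611: agcatgGGCGTAgtcgatagcaattaaagg
Tcs5: atcatgGGCGTAgatggtaagtttttaggg
mRpL23: gacacaGGCGTAgcaagggggtcgcataag
Tlk: agtgcaGGCGTAggagtgtgcagggttgtc
CG9663: gccagtGGCGTAgaaagggggttttgagaa
CG31145: tcattgGGCGTActtccagattactgagtg
Of these lines 6 carry CA at bases 3 and 4, with 2 bases between CA and the word, while Tlk and CG31145 do not. G stands right after the word in all of them but CG31145. Over all 34 facing GGCGTA of the strongest peaks, C stood 4 bases before the word in 85.3% and A 3 bases before in 82.4%. G stood right before the word in 64.7% and right after it in 67.6%. G also led 17 to 20 bases after the word, with 44.1% to 55.9% of the occurrences. It had the same 44.1% at bases 5, 8 and 16 after the word, so the edges of this stretch are not sharp.

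The same view of ACAGTGG covers the 5 strongest members whose lines touch no annotated UTR, again leaving out 1 arm. Trl, an intron peak, is at chr3L:14759393-14759422 on the plus strand, CenG1A at chr2L:13835526-13835555 on the minus strand and Lon at chr3L:19612229-19612258 on the plus strand. norpA is at chrX:4325047-4325076 on the minus strand and CG1635 at chr3R:31588441-31588470 on the plus strand.
Trl: ccaagcACAGTGGgatacaaaacataagtg
CenG1A: gcaggtACAGTGGtcactctacagagcgaa
Lon: tgttgcACAGTGGtaccggtgaaatttttt
norpA: tcaagtACAGTGGggcctttttgtgcagac
CG1635: ctgtaaACAGTGGgctcaagttgatggaat
The word followed C in 53.9% and T in 32.3% of the 65 facing occurrences at strongest peaks, and G stood 2 bases before it in 67.7%. ACAGTGG ends in GG and GGCGTA begins with GG, and within ACAGTGG, as in most lines of GGCGTA, CA stands 2 bases before GG. The words can overlap by these bases, as they did at MFS10.

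Where a facing word stands on each side of a summit, the words read toward each other. The next lines give the 4 strongest such intervals that touch no annotated UTR, leaving out 1 arm, on the plus strand, from 4 bases before the left word to 4 bases after the right one, with both words in capitals (the right word is seen as its reverse complement). They lie at chr3L:19590531-19590690 (CG14100), chr3R:31588443-31588641 (CG1635), chr2L:10474416-10474619 (RluA-1) and chr2L:4997571-4997755 (Rtnl1).
CG14100: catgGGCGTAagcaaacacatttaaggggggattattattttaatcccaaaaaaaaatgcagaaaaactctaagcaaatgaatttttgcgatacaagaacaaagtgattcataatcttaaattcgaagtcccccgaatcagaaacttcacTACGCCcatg
CG1635: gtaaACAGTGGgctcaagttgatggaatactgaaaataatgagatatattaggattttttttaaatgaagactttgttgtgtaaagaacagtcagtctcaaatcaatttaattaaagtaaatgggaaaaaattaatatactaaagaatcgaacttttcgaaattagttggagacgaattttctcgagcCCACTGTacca
RluA-1: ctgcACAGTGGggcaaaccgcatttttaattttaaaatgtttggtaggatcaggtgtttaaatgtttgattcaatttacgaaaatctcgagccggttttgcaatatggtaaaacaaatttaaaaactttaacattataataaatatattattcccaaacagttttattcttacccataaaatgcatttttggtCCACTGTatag
Rtnl1: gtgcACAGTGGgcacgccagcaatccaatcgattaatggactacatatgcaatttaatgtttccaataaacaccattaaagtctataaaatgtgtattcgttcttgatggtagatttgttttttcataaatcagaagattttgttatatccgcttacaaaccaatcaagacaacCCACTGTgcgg
In CG14100 the word centres were 146 bp apart, 75.5 and 70.5 bp from the summit. In Rtnl1 they were 170 bp apart, 62 and 108 bp from it. CG1635 had 184 bp between the centres and RluA-1 had 189 bp. G and C made up 35.6% of the CG14100 interval, 30.2% of CG1635, 29.9% of RluA-1 and 36.2% of Rtnl1. Over the 18 intervals read, it ran between 27.1% and 48.3% with a median of 33.75%, and the highest was that of CG18622.

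The first of these lines belongs to the second strongest peak of all. CG14100 had a pooled signal of 3804, with 2162 in replicate 1 and 1659 in replicate 2, and its summit lay 89 bp upstream of the start site. The strongest peak lay in an intron of CG11050 (chr2L:6612435-6612957), 1025 bp downstream of the nearest start site, with a pooled signal of 4117, 2171 in replicate 1 and 1948 in replicate 2. It had no facing word. Next came Ugalt, which encodes a UDP-galactose transporter, with 3121 pooled, 1769 in replicate 1 and 1375 in replicate 2. mRpL41, a gene of the mitochondrial ribosome, followed with 3062 pooled, 1615 and 1479. HmgZ, a chromatin protein with a high mobility group box, had 2481 in an intron, with 1338 in replicate 1 and 1142 in replicate 2.

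The pooled signal of the strongest peaks ran between 501.9 and 4117 with a median of 727, against a median of 126 for the remaining peaks. They were 5.61% of the optimal peaks and held 24.96% of the summed signal. The lowest members were CG8745 with 504.03, Polr2J with 503.87 and out with 501.89. Just outside lay SCCRO3 with 499.97, Ptpmeg2 with 499.09 and hts with 498.89. No gap in signal stands at the limit. The 345 entries have 344 distinct coordinates, since an intron peak of CG9663 (chr2L:3301995-3302580) carries 2 summits 203 bp apart, with pooled signals of 1557 and 652.3.

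Every strongest peak was present in both replicates. All 345 overlapped the conservative set and the thresholded set of each replicate, against 52.2% of remaining peaks (50.9 to 53.5) and 54.8% of all optimal peaks. The deposited score, a scaled IDR, was 1000 for every member. The summits of the replicates lay a median of 10 bp apart at strongest peaks (8 to 12) and 19 bp apart at the 3040 remaining peaks with both replicate values (18 to 20). They were within 25 bp of each other at 85.8% of strongest and 59.1% of remaining peaks. The sum of the replicate signals was between 0.914 and 1.06 of the pooled signal, with a median of 1. Selection on pooled signal therefore favoured peaks strong in both replicates. The lowest member signals, 212.2 in replicate 1 and 185.3 in replicate 2, lay above the remaining medians of 91.95 and 84.79. The full overlap and the top scores are thus no independent evidence of repeatability.

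Signal was higher in replicate 1 at most members. The median replicate signal of the strongest peaks was 400.4 in replicate 1 and 326.9 in replicate 2. On the log2 scale the ratio of replicate 1 to replicate 2 had a median of 0.31 (0.27 to 0.33) and an SD of 0.27 over the strongest peaks, against a median of 0.15 (0.14 to 0.17) and an SD of 0.56 over the remaining peaks. Of the strongest peaks, 299 were higher in replicate 1 (86.7%, 82.6 to 90.1), against 64.1% of the remaining peaks (62.3 to 65.8). The depth of each library was not known, so a shift common to all peaks cannot be told apart from depth.

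**Figure D1:**
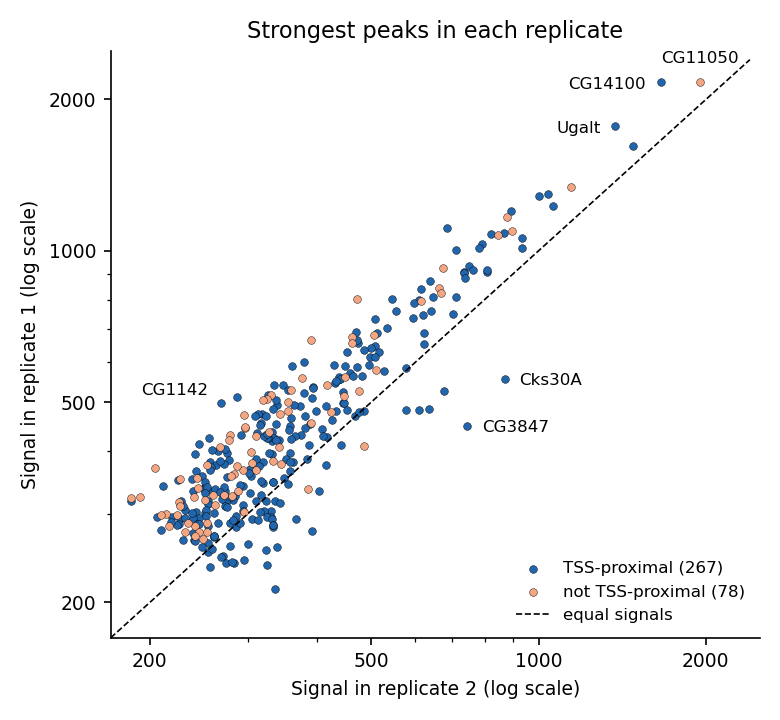
Signal of the 345 strongest peaks in replicate 1 (vertical, log scale) and replicate 2 (horizontal, log scale), with peaks within 500 bp of a transcription start site (TSS) in blue, the others in orange and a dashed line for equal signals. Most points lie above the line, and CG3847 and Cks30A lie far below it.

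A small group of 46 members had more signal in replicate 2, and these differed from the 299 others in sequence and place. None of the 46 had a facing word, which allows a share of up to 6.52% by a limit of 3 counts and of 7.71% by the exact interval, against 77 of the 299 (25.8%). The Motif 1 core GGTCACAC was in the 200 bp around the summit of 6 of the 46 (13.0%) and of 2 of the 299 (0.669%). DRE (TATCGATA) was in 8.70% and 3.01%. Median G+C was 39% in the 46 and 33% in the 299, and 95.7% and 74.6% lay within 500 bp of a start site. Cytoplasmic ribosomal protein genes lay at 6 of the 46 and at 4 of the 299. This split was looked at after the ratios were seen.

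Members with the largest excess in replicate 2 included the gene of the tagged protein. CG3847 had 448.3 in replicate 1 and 744.8 in replicate 2, a log2 ratio of -0.73. LPCAT, a lysophospholipid acyltransferase gene, had 212.2 and 336.4, a log2 ratio of -0.67, at 1 of its 2 member peaks. Cks30A, which encodes a subunit of cyclin-dependent kinase complexes, had 556.1 in replicate 1 and 869.9 in replicate 2 (-0.65). Drp1, the mitochondrial fission GTPase gene, had 277.7 and 391.8 (-0.50). All 4 summits lay within 80 bp upstream of a start site. At the other end CG1142 had 498.3 in replicate 1 and 268.4 in replicate 2 (0.89), and prage, an exonuclease gene, had 369.9 and 204.2 (0.86). CG14968 followed with 513.3 and 287.1 (0.84), and egh, a glycosyltransferase gene, with 322.6 and 185.3 (0.80).

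The order of sequence groups by this ratio was mostly alike in the remaining peaks, which come from the same libraries and are no independent check. With a facing word, the median log2 ratio of replicate 1 to replicate 2 was 0.41 in strongest peaks (0.35 to 0.47, n = 77) and 0.39 in remaining peaks (0.36 to 0.45, n = 220). Unlike at strongest peaks, 41 of these 220 remaining peaks (18.6%) were higher in replicate 2, among them 17 of the 52 with GGCGTA (32.7%). For GGCGTA alone the median log2 ratio was 0.37 in 32 strongest and 0.22 in 52 remaining peaks (0.03 to 0.37). For ACAGTGG alone it was 0.44 in 48 strongest and 0.44 in 170 remaining peaks. With neither word it was 0.26 in 268 strongest peaks (0.24 to 0.31) and 0.14 in 2820 remaining peaks (0.12 to 0.16). With the Motif 1 core it was -0.22 in the 8 strongest peaks (-0.65 to 0.67) and -0.12 in 212 remaining peaks (-0.18 to -0.08). At cytoplasmic ribosomal protein genes it was -0.07 in the 10 strongest peaks (-0.14 to 0.25) and -0.09 in 58 remaining peaks (-0.19 to 0.06). Peaks away from start sites had 0.38 in the strongest set (0.32 to 0.46, n = 78) and 0.35 in the remaining set (0.32 to 0.36, n = 1029). At start sites the medians were 0.28 in the strongest set (0.24 to 0.32, n = 267) and 0.05 in the remaining set (0.03 to 0.07, n = 2011). Base composition differed between these groups, and its part in the ratio was not tested.

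At the CG3847 promoter (chrX:6346856-6347256) the pooled signal was 1194, rank 51 of the 345. Its summit lay 65 bp upstream of the start site in sequence of 58% G+C, with no facing word.

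Most strongest peaks sat at gene starts. A summit lay within 500 bp of a TSS for 267 of the 345 (77.4%, 72.6 to 81.7), against 57.6% of remaining peaks (56.3 to 58.9) and 58.7% of all optimal peaks. Introns held 60 strongest peaks (17.4%, 13.5 to 21.8) and 26.6% of remaining peaks (25.5 to 27.8), and intergenic sequence held 15 (4.35%, 2.45 to 7.07) and 11.3% (10.5 to 12.2). The coding exon class had 1 member (0.290%, against 2.24% of remaining peaks), in otp with Cib2 as the nearest start site and a signal of 647.2. Other exons had 2 (0.580%, against 0.741%), both in non-coding RNA genes, lncRNA:CR46035 with 827.5 and lncRNA:CR44619 with 625.9. No member summit was classed in a 5′ or 3′ UTR, where a count of 0 allows up to 0.870% by the same limit of 3 counts and 1.06% by the exact interval. These classes were small in the remaining peaks as well, at 0.534% and 0.879%. They take only summits more than 500 bp from a TSS, so a summit in a UTR near a start is not counted there. The share at start sites increased along the signal classes below the limit from 50 upward, with 55.2% under a signal of 50, 43.0% at signals of 50 to 100, 60.8% at 100 to 200, 67.7% at 200 to 300, 74.7% at 300 to 500 and 75.4% at 500 to 750.

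**Figure D2:**
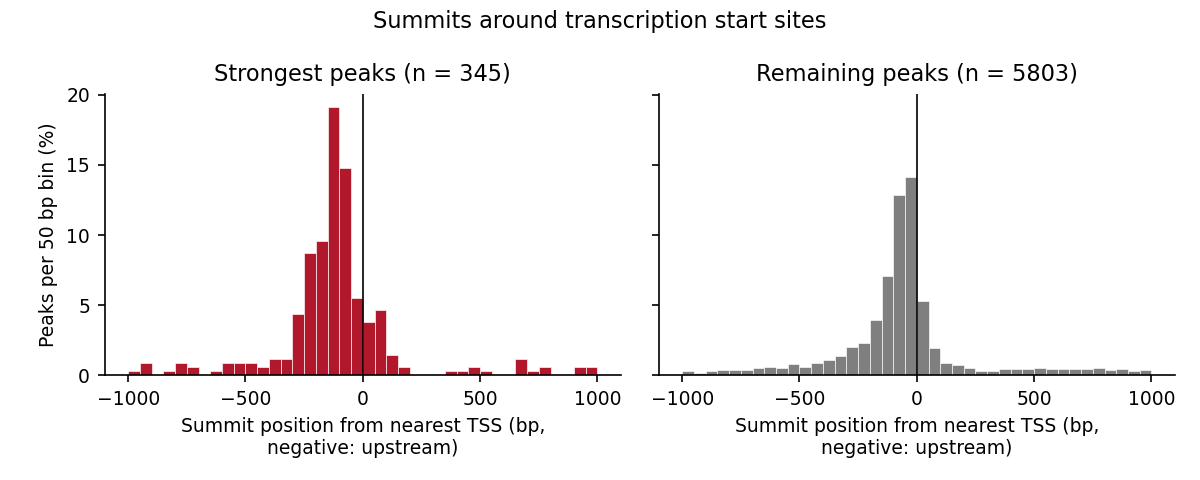
Share of peaks per 50 bp bin (vertical) by summit position from the nearest TSS (horizontal, negative is upstream), strongest peaks in red at left and remaining peaks in grey at right. The tallest bin of the strongest peaks, 19.1%, is 100 to 150 bp upstream, and the remaining peaks pile up closer to the start.

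At start sites the strongest summits lay farther upstream. Their median position was -114 bp (-127 to -104), where negative is upstream, against -61 bp for remaining peaks (-65 to -58). Promoter peaks were called divergent when the summit lay between head-to-head protein-coding starts of different genes at most 1000 bp apart. Other peaks near a protein-coding start were called single-gene, even where another gene's start was in reach. Their side was read from the nearest protein-coding start. Among single-gene promoters the summit was upstream of the start at 125 of 137 strongest peaks (91.2%, 85.2 to 95.4) and at 74.4% of remaining peaks (72.4 to 76.3). Divergent promoters held 119 of the 267 (44.6%, 38.5 to 50.8) and 38.9% of remaining promoter peaks (37.2 to 40.6), so these intervals overlap. The divergent starts were a median of 269 bp apart at strongest peaks (259 to 289) and 337.5 bp at remaining peaks (323 to 351). Peak width had a median of 316 bp in the strongest set and 390 bp in the remaining set. The width of 390 bp was the most frequent in the deposited list, held by 1 strongest peak and by 80.4% of remaining peaks.

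Among divergent promoters, after Ugalt and mRpL41, came the promoter of CG5611, with a signal of 2356, 1299 in replicate 1 and 1039 in replicate 2. Tcs5, a kinase gene of tRNA modification, shares its promoter with CHMP2B, a subunit of the endosomal sorting complex ESCRT-III. That peak had 2281 pooled, 1226 in replicate 1 and 1063 in replicate 2. Single-gene promoters were led, after CG14100, by ph-p, which encodes the Polycomb protein Polyhomeotic, with 2206 pooled, 1287 and 1004. The peak at eIF6, a translation factor gene, and asRNA:CR45928 had 1939 pooled, 1085 and 867.2. SLC5A11, a sodium-coupled solute transporter gene, had 1811 pooled, 1033 and 790.6. Each of these promoters had more signal in replicate 1 than in replicate 2.

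Only 12 promoter members were called single-gene with the summit downstream of the start (4.49%, 2.34 to 7.72), against 14.7% of remaining promoter peaks (13.56 to 15.99). They were led by CG8320 with 1691, GstE13, a glutathione S-transferase gene, with 1635, CG9147 with 1402 and CG11788 with 1105. CG8320, CG9147 and CG11788 each had the start of a further gene within 500 bp of the summit. In CG8320 GGCGTA faced the summit. CG11788 was one of the members with more signal in replicate 2, 485.5 in replicate 1 against 635 in replicate 2. Starts of non-coding genes held 11 members, led by lncRNA:CR44619 with 2004, lncRNA:CR44339 with 1443 and lncRNA:CR31044 with 1237.

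Away from start sites the strongest intron peaks, after CG11050 and HmgZ, lay in Adf1, which encodes a transcription factor, with 2042 pooled, 1169 in replicate 1 and 878.2 in replicate 2. The intergenic class was led by a peak 11917 bp from the start of CG13323 with 1490 pooled, 825.2 and 668.4. A peak near lncRNA:CR45643 had 1139 and one near lncRNA:CR45695 had 1090. Of the 78 members away from starts, 34.6% had a facing word, against 18.7% of the 267 at starts.

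The centre of the strongest peaks was poor in G and C. Over the 200 bp around the summit the median was 34% (33 to 35) in strongest peaks and 37.5% (37.5 to 38) in remaining peaks. At start sites it was 33% (32 to 34) against 38.5% (38 to 38.5), and away from them 35.75% (34 to 37.5) against 37% (36.5 to 37.5). The finer profile gave a clearer contrast. In the 20 bp bin just upstream of the summit the mean was 29.9% in strongest promoter peaks and 40.2% in remaining promoter peaks. Away from start sites the same bin had 30.6% and 36.9%. About 110 bp to each side the strongest promoter peaks had 43.2% and 42.7%, above the 38.3% and 38.7% of the remaining promoter peaks.

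**Figure D3:**
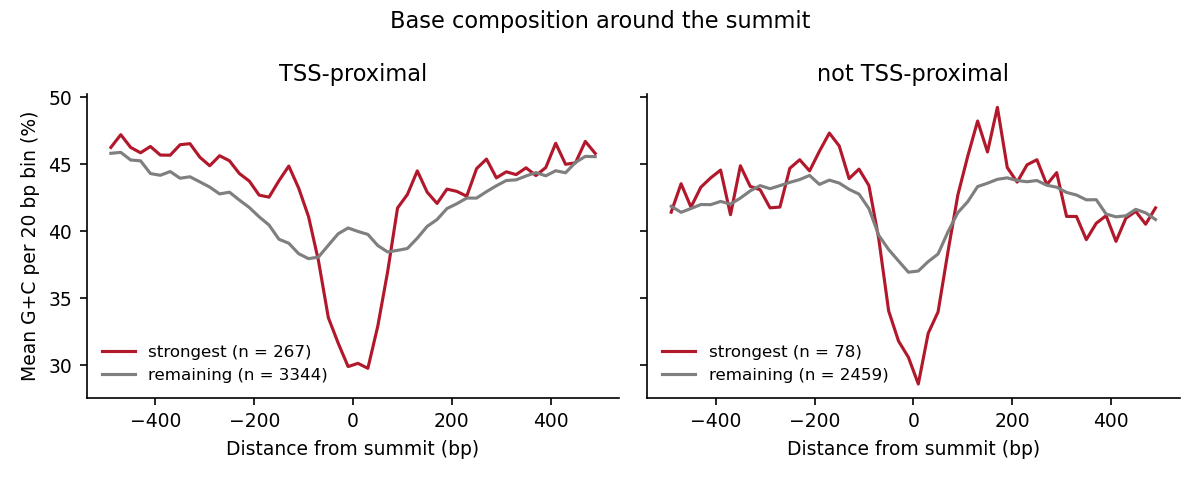
Mean G+C in 20 bp bins (vertical, percent) by distance from the summit (horizontal, bp), for promoter peaks at left and other peaks at right, strongest in red and remaining in grey. The strongest peaks have a trough near 30% at the summit in both panels, while remaining promoter peaks have a small rise there, to 40.2%.

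Most words near a strongest summit pointed toward it. In the zone of 50 to 125 bp on either side, 34 occurrences of GGCGTA had the strongest summit 3′ of the word and 6 had it 5′, against 111 and 64 at remaining peaks. For ACAGTGG the counts were 65 and 7 at strongest peaks, and 314 and 62 at remaining peaks. GGCGTA with CA 2 bases before it had 28 and 1 at strongest peaks, and 23 and 1 at remaining peaks. This longer form was also picked after the data were seen, and each of its occurrences holds a GGCGTA, so its counts are no separate support. It faced 7.54% of strongest peaks (4.98 to 10.8) and 0.379% of remaining peaks (0.238 to 0.573). Of the 2012 occurrences of this longer form on the arms, 1.39% faced a strongest summit and 1.14% a remaining summit. Relative to the gene's direction the words had no fixed strand at promoters, since 11 of 25 GGCGTA and 15 of 39 ACAGTGG were on the gene's strand.

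**Figure D4:**
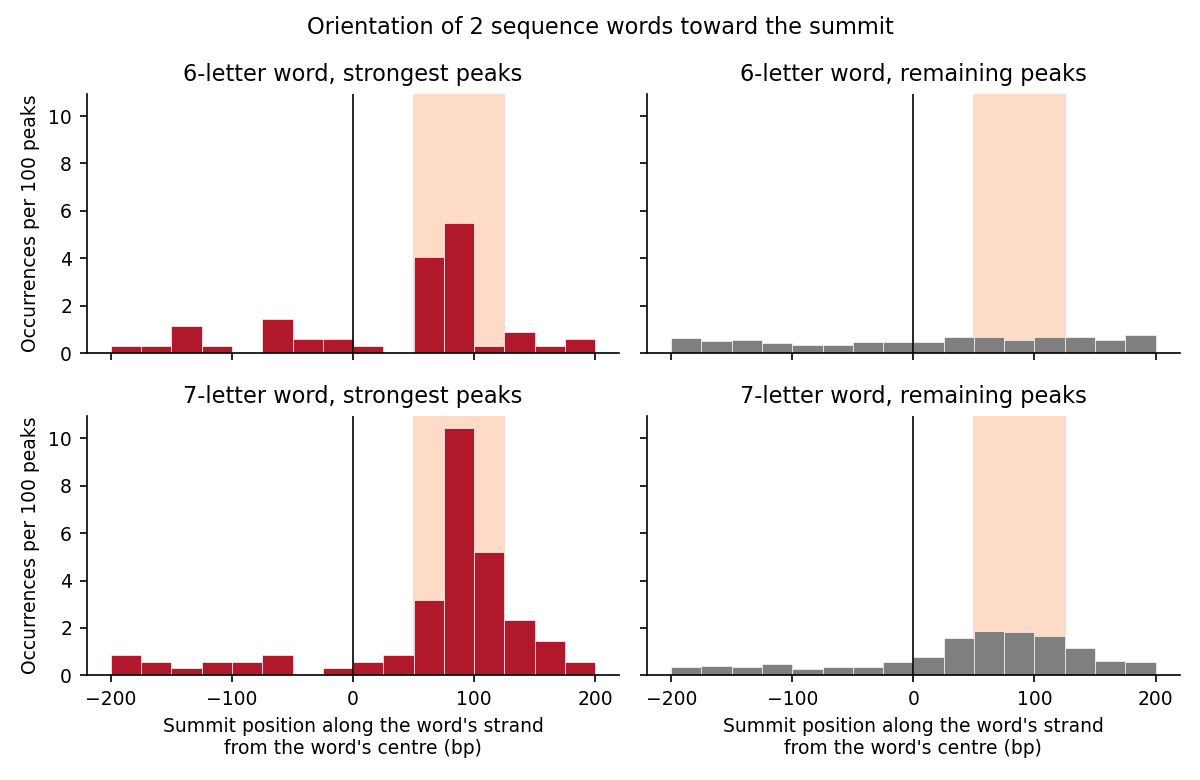
Occurrences per 100 peaks in 25 bp bins (vertical) of GGCGTA (6-letter word, top) and ACAGTGG (7-letter word, bottom) by the position of the summit along the word's strand (horizontal, bp), strongest peaks at left and remaining peaks at right, with the zone of 50 to 125 bp shaded. The strongest peaks reach 5.51 and 10.4 occurrences per 100 peaks in the bin of 75 to 100 bp, where the remaining peaks have 0.569 and 1.83.

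Counts were similar when each replicate's own summits were used at the same members. The replicate summits lay a median of 10 bp apart there, little beside the width of the zone, so this is no separate check. With the summits of replicate 1, GGCGTA faced 32 members and ACAGTGG 51, and with those of replicate 2 the counts were 28 and 47. Either word faced 77 strongest peaks (22.3%, 18.03 to 27.1) and 6.53% of remaining peaks (5.91 to 7.20). Words faced the summit from both sides at 20 strongest peaks (5.80%, 3.58 to 8.81) and 0.689% of remaining peaks (0.493 to 0.938). The centres of these pairs were 136 to 236 bp apart at strongest peaks, with a median of 182 bp. At the remaining peaks the range was 121 to 243 bp with a median of 162.5 bp.

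Shares with GGCGTA were larger toward the top of the signal range. It faced 2.41% of optimal peaks with a signal of 300 to 500 and 3.28% at 500 to 750, then 8.97% at 750 to 1000, 20.5% at 1000 to 2000 and 36.4% of the 11 peaks at 2000 or more (10.9 to 69.2). Members faced by GGCGTA had a median pooled signal of 1046, those faced by ACAGTGG 775.6 and those faced by neither 680.3. ACAGTGG had a different course. It faced 4.73% of peaks at 100 to 200, 8.97% at 300 to 500, 10.4% at 500 to 750, 21.8% at 750 to 1000, 15.1% at 1000 to 2000 and 1 of the 11 above. ACAGTGG was most frequent in intron members, at 28.3% of 60 (17.5 to 41.4) against 8.09% of remaining intron peaks (6.78 to 9.56).

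**Figure D5:**
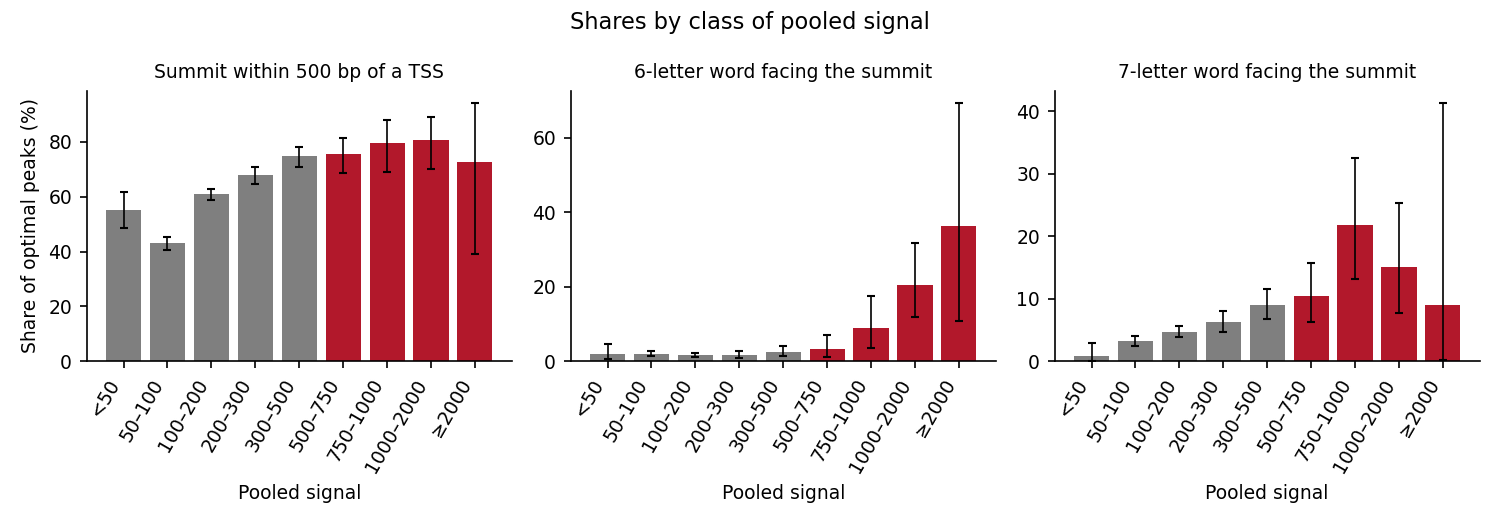
Share of optimal peaks (vertical, percent, with exact 95% intervals) in classes of pooled signal (horizontal), for summits near a TSS (left), facing GGCGTA (middle) and facing ACAGTGG (right), with strongest classes in red and remaining classes in grey. The middle panel stays between 1.59% and 2.41% below a signal of 500 and reaches 36.4% in the top class of 11 peaks.

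Counted anywhere in the 200 bp around the summit, GGCGTA was in 11.0% of strongest peaks (7.91 to 14.8) and 3.70% of remaining peaks (3.23 to 4.22), beside 4.46% of 661521 windows of 200 bp tiled over the arms and 3.88% of windows at start sites. ACAGTGG was in 13.0% (9.68 to 17.1) and 6.69% (6.06 to 7.36), beside 2.34% of tiles and 2.28% of start site windows. GGCGTA with CA 2 bases before it was in 6.67% (4.27 to 9.84) and 0.724% (0.522 to 0.977), beside 0.290% and 0.363%. A window of this length cuts through the zone on both sides, so some facing words lie beyond it.

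Among known promoter words, Motif 1 and DRE were less frequent and TATAAA, the word of the TATA box, more frequent in the strongest peaks. The Motif 1 core GGTCACAC was in 2.32% of strongest peaks (1.01 to 4.52) and 6.39% of remaining peaks (5.78 to 7.05), beside 0.432% of tiles and 4.78% of start site windows. Among promoter peaks alone it was in 2.62% and 10.7%. DRE, read by the factor Dref as TATCGATA, was in 3.77% (2.02 to 6.36) and 6.48% (5.86 to 7.14), beside 0.546% of tiles and 5.44% of start site windows. The gap between the sets was smaller in windows of 400 bp, where Motif 1 was in 6.96% of strongest and 8.98% of remaining peaks, and DRE in 8.41% and 8.75%. TATAAA was in 42.3% of strongest peaks (37.0 to 47.7) and 29.6% of remaining peaks (28.4 to 30.8), beside 21.5% of tiles and 26.1% of start site windows. Among promoter peaks alone TATAAA was in 43.1% and 28.9%, close to the shares over all peaks. It was counted anywhere in the window, so a hit need not be a TATA box. TATAAA is made of A and T, and the part of base composition in its share was not tested. The E-box CAGCTG was in 8.12% (5.46 to 11.5) and 12.1% (11.2 to 12.9). CGATA, the BEAF-32 core that DRE contains, was in 30.4% (25.6 to 35.6) and 34.6% (33.4 to 35.9), and GAGAGAG, read by GAGA factor, in 2.32% and 3.58%. All words were searched on both strands.

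The strongest peaks marked 408 of 18277 genes with a summit within 500 bp of a start (2.23%), of which 385 code for proteins. A promoter peak can mark more than 1 gene, and 49.1% of the 267 had starts of several genes in reach. Of 29 gene lists, 20 had a gene marked by a strongest peak and 9 had none. Over all genes with any optimal peak in reach, 8.81% had a strongest peak, the share beside which each list's own share is given.

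Ribosomal protein genes had the largest counts. Among 93 cytoplasmic ribosomal protein genes 10 had a strongest peak, of 73 with any optimal peak (13.7%). RpL23A had 1054 pooled, with 483.2 in replicate 1 and 577.5 in replicate 2. RpL34b had 955.7 pooled, 480 and 486.3, and RpL7 had 929.5 pooled, 480.3 and 431.4. RpS27, whose promoter peak is shared with Nup37, had 846.6 pooled, 426.8 and 416. Of the mitochondrial ribosomal protein genes, 7 of 73 had one, of 44 with any peak (15.9%). mRpL41 led them, then mRpS10 with 2099 (1199 and 894), mRpS23 with 1793 (1109 and 683.9) and mRpL23 with 1667 (916.2 and 762.1). All 4 had more signal in replicate 1, and mRpS10 shares its promoter with Art3 and mRpS23 with CenG1A. A promoter peak between 2 genes cannot be assigned to 1 of them.

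Chromatin and transcription genes were among the members. Of 31 Polycomb and trithorax genes 3 had a strongest peak, of 18 with any (16.7%). Besides ph-p these were brm, the ATPase of a SWI/SNF remodelling complex, with 1506 (810.6 in replicate 1 and 709.2 in replicate 2), and E(z), the methyltransferase for histone H3 lysine 27, with 768.2 (449.9 and 316). Of 20 insulator and architectural protein genes 3 did, of 13 with any (23.1%). Chro, a chromodomain protein of interbands, had 1721 (908.9 and 806.7), Cp190 had 835.6 (428.4 and 410) and pzg had 538.5 (294.9 and 238.9). Of 25 Mediator genes 3 did, of 13 with any (23.1%), with MED27 at 618.1, MED17 at 544.8 and MED6 at 506.2. RNA polymerase and general transcription factor genes had 3 of 55, of 28 with any (10.7%), with Polr2B at 735, Polr2H at 568.8 and Polr2J at 503.9. These counts of 3 are small, and their difference from the share over all genes was not tested.

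Autophagy and endosomal sorting genes had 4 of 31, of 21 with any peak (19.05%), namely CHMP2B, Atg17 with 603.4, Atg2 with 580.2 and Atg9 with 538.8. DNA repair and checkpoint genes had 2 of 23, of 15 with any (13.3%). They were mei-41, the fly ATR kinase, with 599 and Irbp, a subunit of Ku, with 522.5. Aminoacyl-tRNA synthetase genes had 2 of 31, of 18 with any (11.1%), GluProRS with 593 and SerRS with 542.8. The Rab, Arf and Arl list had 2 of 41, of 23 with any (8.70%). They were Arl1, at the promoter it shares with brm, and Rab3GAP1 with 562.6, a regulator of Rab GTPases and not one of them. In addition 3 small RNA genes of the nucleolus and 1 tRNA gene, tRNA:Tyr-GTA-1-8, were marked by peaks at promoters of other genes as well. They were 12.5% of the 24 small nuclear and nucleolar RNA genes with any peak and 7.69% of the 13 such tRNA genes.

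Single genes were marked in the other lists. Among them were elav, which encodes an RNA-binding protein of neurons, with 1034 (571.7 and 458.6), and numb, an inhibitor of Notch signalling, with 751.7 (420.5 and 337.4). papi, a Tudor-domain gene of the piRNA pathway, had 739.7, Hsp27 649.9 and RnrS, a subunit of ribonucleotide reductase, 558.7. Of genes with any peak, neuronal differentiation had 1 of 4, Notch 1 of 8 and germline genes 1 of 7. The heat shock list had 1 of 14 and the cell cycle list 1 of 25. Translation factor, glutathione S-transferase and nuclear pore lists had 1 of 26, 1 of 3 and 1 of 14. Differences of these small counts from the 8.81% over all genes were not tested. No gene of the respiratory chain had a strongest peak, although 39 of 87 had an optimal peak. The same was true of the proteasome with 24 of 48, the splicing and mRNA processing list with 22 of 29 and the vacuolar ATPase with 15 of 33. Hox and segmentation, muscle, cuticular protein, chemoreceptor and microRNA genes also had none, with 6 of 33, 7 of 22, 2 of 120, 3 of 186 and 14 of 260 having an optimal peak.

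Strongest peaks were mostly far from each other. The nearest other member lay a median of 56403 bp away, and 16 members (4.64%) had one within 2000 bp. Joined over gaps of at most 10000 bp, 61 members formed 26 pairs and 3 runs of 3. At lncRNA:CR44619 on X, 3 members stood in 3132 bp with pooled signals of 2004, 1122 and 625.9. A second run was intergenic, with lncRNA:CR44603 as the nearest start of the peak of 744.5 and lncRNA:CR45695 as that of the peaks of 1090 and 719.8. The third held Dpp10 with 762 and a pair of peaks at CG11050 with 525.8 and 4117. Pairs at 1 gene stood at ph-p with 2206 and 1077 and at Raf, the kinase gene, with 828.8 and 577.6. A further pair, with 1008 and 522.3, had foxo, a forkhead transcription factor gene of insulin signalling, as the gene of the nearest start. Its peak of 1008 was intergenic, 3338 bp upstream of that start. At Rtnl1, a reticulon gene, with 1071 and 609.1, both peaks had ACAGTGG facing from each side. At LPCAT the members went opposite ways between replicates, with 504.7 in replicate 1 and 318.9 in replicate 2 at the stronger and 212.2 and 336.4 at the weaker.

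By chromosome arm the members numbered 87 on 2L, 63 on 2R, 61 on 3L, 77 on 3R and 57 on X, and none on 4 or Y, where 3 optimal peaks lay in all. Arm 2L held 25.2% of strongest peaks (20.7 to 30.2) and 18.1% of remaining peaks (17.1 to 19.1). At signal minimums of 300 and 1000 this share was 19.03% and 19.05%, against 18.4% and 18.5% of the peaks below them.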

How the data were processed

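The members and gene lists were chosen with earlier results of these data known. Of 6174 optimal peaks, the 6148 on the chromosome arms, 4 and Y were used. Per the labels, the assembly was dm6. The authors deposited a signal per peak on a scale that no source states. Pooled signals were close to the sum of the replicate signals. The score in the deposited files is the IDR scaled to at most 1000, with a lowest value of 830 in the optimal set. Another column deposited by the authors gives each summit in bp after its peak's start. Chromatin was sheared to 200 to 800 bp, per the labels. How reads were aligned and peaks called is not given in the sources. Depth is unknown, so no interval covers it.

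Summits were placed against 23694 distinct TSS positions of 18277 genes (Ensembl release 115, FlyBase 6.54) as TSS-proximal (within 500 bp) and otherwise by the first of 5′ UTR, coding sequence, 3′ UTR, further exons, introns and intergenic sequence that applied. Replicate values came from the overlapping peak of each replicate's thresholded set with the nearest summit, a matching chosen after the data were seen. G+C and words were read in 200 bp around the summit of the Release 6 genome. The planned ranking took words of 8 letters by the difference of shares. The word GGCGTA (also with CA before it), the word ACAGTGG, the word AACCCCC and the zone of 50 to 125 bp came from later rankings of other word lengths and windows over all arms, among them one weighted by G+C class and TSS proximity that is not used as a result. The split of members by the replicate with more signal, and the replicate ratio by sequence group, were also added after the data were seen. The named genes follow a rule of the strongest members per position class, promoter layout and gene list, the members nearest the signal limit and those with the most extreme replicate ratios. Sequences were printed for members with the words instead. Scripts used Python 3.11.15, NumPy 2.4.6, pandas 2.3.3, SciPy 1.17.1, Biopython 1.88 and matplotlib 3.10.9, and were tested on simulated data. Shares carry Clopper-Pearson intervals and medians order-statistic intervals at 95%. No test was run, since there was 1 group and the signal chose the members. Alternatives were signal minimums of 300 and 1000, other TSS and sequence windows, the conservative set and each replicate left out. A zone of 25 to 150 bp was an unplanned addition to these.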

Additional observations from a re-analysis of the deposited data

Results flagged for a closer look

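The deposited ranked table of the pooled replicates held 362 peaks with a signal of 500 or more, and 17 of them overlapped no optimal peak. Of these 17, 14 lay on 3R and 3 on 2L, their signals ran between 514.2 and 2992, and all 17 passed the IDR threshold in the ranked table. They are not among the 345 members and were not analysed here further. Counted with them, 2L held 24.9% and 3R 25.1% of the peaks of this strength.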

How the results depend on the processing

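Of 159 alternative values of 29 results, 130 stayed within the main value's interval or, for counts, 1.5 times, and 29 did not. All 345 members were in the conservative set, so that alternative repeated the main value of each result it was applied to. Its values for the strongest peaks were fixed in advance, and their place among the 130 is no check. Only the values of the remaining peaks could change with that set. The order of strongest and remaining peaks held in 113 of 119 alternatives and was the other way in the rest, which were divergent promoters at a signal minimum of 1000 (38.8% against 39.3%), GGCGTA and ACAGTGG in windows of 100 bp (1.45% against 2.00% and 1.45% against 2.91%), which end before the zone, arm 2R at minimums of 300 (20.1% against 19.5%) and 1000 (25% against 19.5%) and arm 3L at 300 (21.7% against 20.5%). With TSS windows of 200 and 1000 bp the share at starts was 59.4% and 85.8%, and with 200 bp the divergent share was 56.1%. Median G+C was 36% at a minimum of 1000 and 29% in windows of 100 bp. Median width was 249 bp at 300 and 360 bp at 1000. At 300 and 1000 GGCGTA was in 6.49% and 22.6% of windows and faced 4.97% and 22.6% of summits, and arm 2L held 19.03% and 19.05%. In windows of 400 bp ACAGTGG was in 20.3%, Motif 1 in 6.96% and DRE in 8.41%, and in 100 bp Motif 1 in 0.580% and DRE in 1.74%. Cytoplasmic ribosomal protein genes numbered 28 at 300 and 1 at 1000, mitochondrial ones 4 at 1000, Polycomb and trithorax genes 6 at 300 and insulator genes 1 at 1000. Leaving out each replicate in turn, with the 345 strongest peaks of the other, gave a median distance to a TSS of 133 to 159 bp and a median width of 275 to 276 bp. Without replicate 1 the distance of 133 bp (122 to 150) stood against 148 bp at remaining peaks (137 to 159), intervals that overlap, whereas with both replicates it was 154 bp against 257 bp. The cause of these shifts was not tested. No paired analysis was possible because there was 1 group and no test. Depth is not given, so its limit on these values is unknown.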

Other observations

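AACCCCC mostly read away from the strongest summits, so its reverse complement read toward them, as both facing words did. Only the strand was compared, and not the side of the summit on which a facing word stood. In the zone of 50 to 125 bp, 11 occurrences had the summit 5′ of the word and 1 had it 3′, against 48 and 29 at remaining peaks. Its share of the 200 bp windows was 5.22% in strongest peaks (3.12 to 8.12) and 1.29% in remaining peaks (1.02 to 1.62), beside 1.42% of tiled windows and 1.03% of start site windows. This word too was picked after its values were seen.

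Ranked on 2L, 3L, X and 4 by the difference of shares, the leading 8-letter words were made of A and T only. ATTTTTTA was in 16.1% of strongest and 7.50% of remaining peaks there, and in 9.29% and 8.34% on 2R and 3R. AAATTTAA was in 15.6% and 7.65% there, and in 7.14% and 6.70% on 2R and 3R. ATTTTTAA and AAATTAAA kept more of their excess, with 12.1% and 7.94%, and with 16.4% and 8.58%, on 2R and 3R. When 6-letter words were ranked by the ratio of shares, GGCGTA came first, with 11.7% of strongest and 3.81% of remaining peaks, and 10% and 3.57% on 2R and 3R. This word had been picked from rankings over all arms, so 2R and 3R were no held-out check for it. On 2R and 3R the excess was also present for CTACGC, which overlaps the reverse complement of GGCGTA, with 9.29% and 3.57%, for ACCCCC with 8.57% and 4.57% and for AAGGGG with 13.6% and 6.42%. It was absent there for GGGTTA with 2.86% and 4.17%. Among the leading 7-letter words it was absent there for GGGTTAA (0% and 1.72%), AAGCTAC (1.43% and 2.0%) and ACTGATA (1.43% and 2.69%). It was small for ACCCCCT (2.14% and 1.56%) and for TGGCGTA, which holds GGCGTA (1.43% and 1.08%). It stayed for CTACGCC, which holds the reverse complement of GGCGTA (6.43% and 1.16%).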
